A study of Homo sapiens with 6 samples.

Results

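The 49 genes described here encode the machinery that drives a cell into and through mitosis: cyclin B and CDK1 with their regulators, the mitotic kinases, the spindle checkpoint, the anaphase-promoting complex or cyclosome (APC/C), condensin, cytokinesis factors and the transcription factors of this program. They were taken from a named list by symbol, and all 49 had a line among the 20263 genes of the deposited table. The data are mRNA-seq values in TPM, a length-corrected share of the transcripts in a library, from 6 libraries of the established colorectal cancer line HCT116. In 3 libraries the cells carried the treatment label WT, with no agent named, and in the other 3 the label CSE. The labels leave CSE unexpanded, and it is taken to mean cigarette smoke extract because the series title speaks of smoking. How much was given, for how long and in what vehicle is not stated in the labels. The study used 1 tumour line, and the labels do not say whether replicate libraries are separate cultures. The p-values thus reflect the spread among these libraries alone, which may be technical.

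Entry into mitosis is set by the kinase CDK1 bound to cyclin B, which WEE1 and PKMYT1 hold inactive by phosphorylation and CDC25 phosphatases release. PLK1 and Aurora A (AURKA, with its cofactor BORA) reinforce that switch, condensin compacts the chromosomes, and the spindle checkpoint (BUB and MAD proteins and the kinase TTK) keeps the APC/C waiting until every chromosome is attached. The APC/C with CDC20 then marks securin and cyclin B for destruction, separase cuts cohesin, and the cell divides. Most of these genes are transcribed late in the cycle, under FOXM1, MYBL2 and the MuvB complex, which binds a short element called CHR, often next to CCAAT boxes bound by NF-Y. In dividing tumour lines these transcripts are used as markers of cells in G2 and mitosis.

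The libraries held the markers of the labelled line: of 8 epithelial markers 6 reached 1 TPM, with KRT8 at 1119 TPM in WT, while VIL1 and LGALS4, of differentiated enterocytes, stayed under 1 TPM. The 5 fibroblast, 5 immune and 4 endothelial markers summed to 43.4 to 45.5, 18.1 to 18.5 and 0.750 to 1.22 TPM per library in WT and 37.3 to 38.0, 12.2 to 13.3 and 1.31 to 1.53 TPM in CSE. Of these 14 only COL1A1 and CD68 reached 1 TPM, and DCN, of fibroblasts, was listed at 0 in all 6 libraries. The share of mitochondrially encoded transcripts was 27.0 to 30.2% in WT and 25.5 to 25.8% in CSE, and that of cytosolic ribosomal proteins 10.9 to 11.5% and 11.98 to 12.9%; apart from the rescaling given with the counts, the part of these shares in the results was not tested. The sequencing depth is unknown, because TPM keeps no depth.

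Most of the mitotic genes were higher in CSE, and 1, CDC25A, was lower. Of the 49 genes, which all passed the filter of at least 1 TPM in at least 3 libraries, 39 rose and 1 fell with a limma adjusted p under 0.05, and 9 did not pass. Over all 12793 genes tested, the same rule called 24.5% higher and 25.6% lower. The median log2 fold change (CSE minus WT, on log2(TPM + 1)) was 0.35 for the 49 genes and -0.0039 for all genes tested. A rise of at least 1.5-fold in mean TPM was called for 11 of the 49, against 2.01% of all genes: CCNB1, CCNB2, CDC25B, CDC25C, PLK1, AURKA, BORA, NEK2, CDC20, PTTG1 and NCAPG. The 3 CSE values lay above all 3 WT values for 40 of the 49 (27.5% of all genes) and below them for 2 (29.9% of all genes). In bulk RNA, a larger share of cells in G2 and mitosis and more mitotic RNA per cell cannot be told apart.

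**Figure D1:**
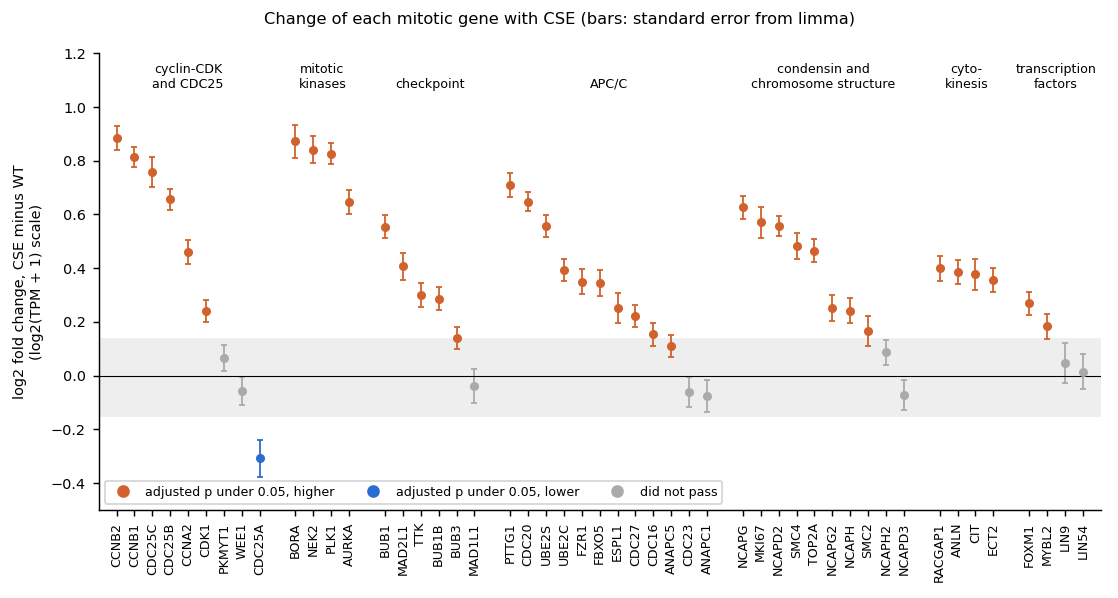
Log2 fold change of each mitotic gene (y axis, CSE minus WT on log2(TPM + 1), with the standard error from limma as bars), grouped by role along the x axis and ordered by size within a role. The grey band spans the middle 50% of all genes tested; CCNB2 stands highest at 0.88 and CDC25A lowest at -0.31.

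Summed over the 49 genes, the transcripts held 3031, 2989.8 and 2917 TPM in the WT libraries and 4129, 4139 and 4089 TPM in the CSE libraries, so the groups did not overlap. Levels spread widely among the genes, from 4.61 TPM for LIN9 to 239.7 TPM for CDC20 in WT. After removal of the mitochondrially encoded genes and rescaling of the remainder, the split of calls over all genes moved from 48.9% higher to 34.1% higher, while 37 of the 49 mitotic genes rose and CDC25A fell (18% of all genes higher under that rescaling). The 2 that no longer passed were ANAPC5 and SMC2.

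**Figure D2:**
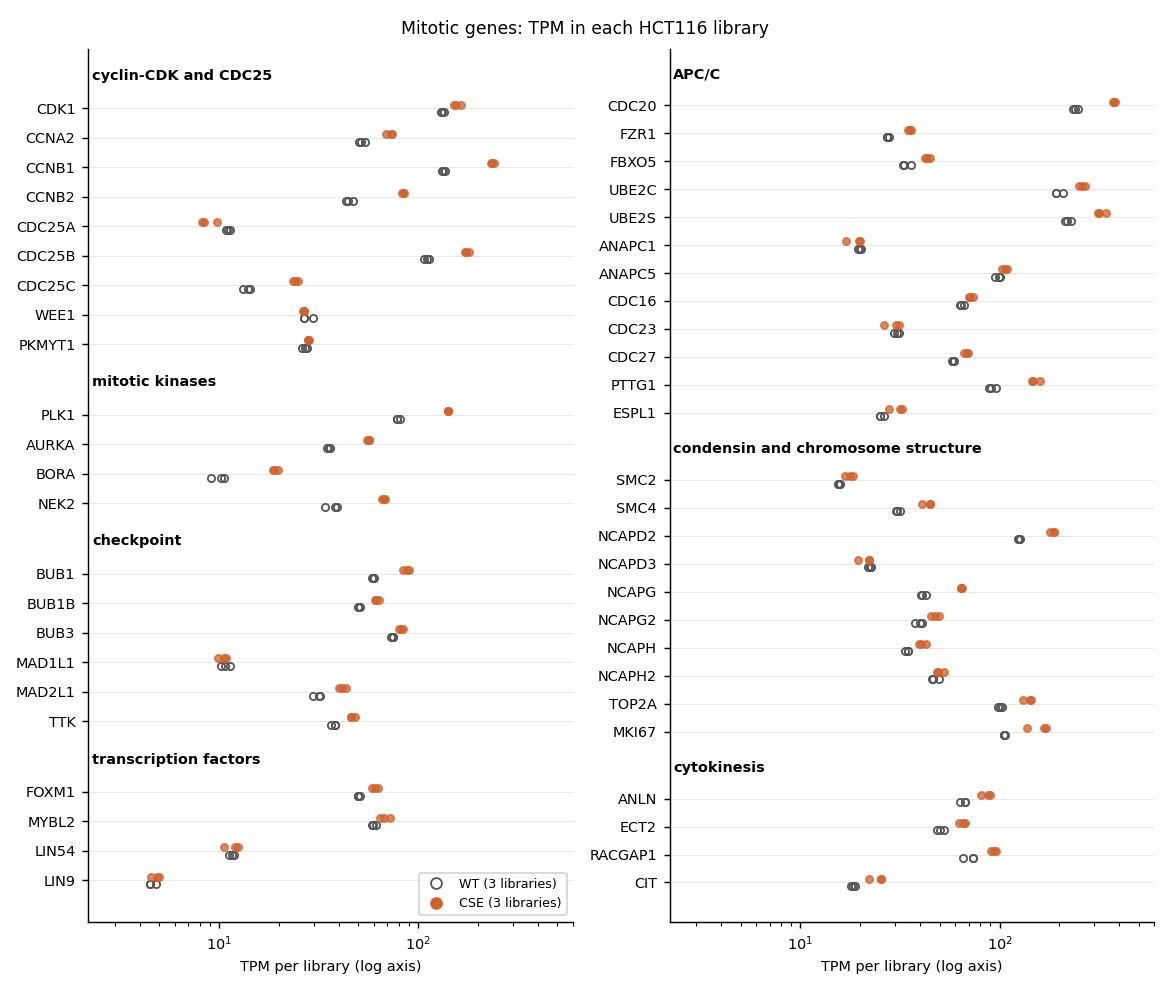
TPM of each of the 49 genes in each library (x axis, log scale), with open circles for the 3 WT and filled circles for the 3 CSE libraries. CCNB1, PLK1 and CDC20 show separated groups with narrow spread, and LIN9, LIN54 and MAD1L1 show groups that overlap.

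Promoters of 4 of the genes that rose are shown first, chosen as examples that carry both CHR and CCAAT, elements that the list did not use; other genes that rose lack one of them. Windows of 300 bases (250 before to 50 after an annotated start) were read from RefSeq on GRCh38.p14, and 40 of the 49 genes had at least 1 window; WEE1, PKMYT1, AURKA, BUB3, TTK, UBE2C, NCAPH2, RACGAP1 and FOXM1 had none in the table. The windows of 4 genes that rose, CCNB1 (chr5:69166900-69167199, plus strand), CCNB2 (chr15:59104896-59105195, plus strand), PLK1 (chr16:23678639-23678938, plus strand) and CDC20 (chr1:43358731-43359030, plus strand), are followed by those of CDC25A, which fell, and ANAPC1, which did not pass: CDC25A (chr3:48188368-48188667, minus strand) and ANAPC1 (chr2:111884144-111884443, minus strand). Each is printed 5′ to 3′ along the gene, and capitals mark matches, on either strand, to the CHR element (spelled TTTGAA, with TTTAAA also counted as a match to it), to the NF-Y box CCAAT, and to a form of the E2F site, TTTNNCGC.
CCNB1: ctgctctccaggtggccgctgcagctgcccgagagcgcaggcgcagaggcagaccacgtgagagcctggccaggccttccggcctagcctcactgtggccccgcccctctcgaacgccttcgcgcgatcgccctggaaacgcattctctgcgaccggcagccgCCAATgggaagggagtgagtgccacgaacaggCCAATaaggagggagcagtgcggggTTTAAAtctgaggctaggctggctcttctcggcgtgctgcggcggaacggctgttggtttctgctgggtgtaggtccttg
CCNB2: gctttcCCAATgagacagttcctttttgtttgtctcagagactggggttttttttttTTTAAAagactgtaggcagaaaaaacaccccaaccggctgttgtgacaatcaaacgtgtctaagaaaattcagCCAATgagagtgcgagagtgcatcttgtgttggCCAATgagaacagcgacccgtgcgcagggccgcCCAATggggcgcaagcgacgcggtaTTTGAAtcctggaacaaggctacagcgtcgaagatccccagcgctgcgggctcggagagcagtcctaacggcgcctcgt
PLK1: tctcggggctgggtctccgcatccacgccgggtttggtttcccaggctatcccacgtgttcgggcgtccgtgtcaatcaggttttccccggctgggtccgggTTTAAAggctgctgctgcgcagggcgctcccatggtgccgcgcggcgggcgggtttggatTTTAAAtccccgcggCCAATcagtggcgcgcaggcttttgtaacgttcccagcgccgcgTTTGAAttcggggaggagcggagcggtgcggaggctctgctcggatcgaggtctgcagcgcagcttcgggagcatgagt
CDC20: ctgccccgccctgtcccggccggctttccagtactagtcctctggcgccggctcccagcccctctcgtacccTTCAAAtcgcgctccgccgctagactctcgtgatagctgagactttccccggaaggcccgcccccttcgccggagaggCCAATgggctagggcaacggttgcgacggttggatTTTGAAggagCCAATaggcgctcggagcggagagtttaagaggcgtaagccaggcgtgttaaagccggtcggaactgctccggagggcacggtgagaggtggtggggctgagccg
CDC25A: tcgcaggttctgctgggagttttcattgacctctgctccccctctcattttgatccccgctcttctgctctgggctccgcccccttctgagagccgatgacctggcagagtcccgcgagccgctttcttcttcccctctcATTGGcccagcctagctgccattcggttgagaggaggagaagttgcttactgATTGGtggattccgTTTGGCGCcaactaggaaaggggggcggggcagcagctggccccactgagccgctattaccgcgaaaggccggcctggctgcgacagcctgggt
ANAPC1: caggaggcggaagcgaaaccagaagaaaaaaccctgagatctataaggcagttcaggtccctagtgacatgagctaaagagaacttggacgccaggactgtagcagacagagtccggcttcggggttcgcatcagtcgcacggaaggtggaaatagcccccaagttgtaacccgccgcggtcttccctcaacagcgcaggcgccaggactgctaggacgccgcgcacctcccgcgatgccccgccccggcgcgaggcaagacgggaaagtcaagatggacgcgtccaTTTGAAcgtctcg

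In CCNB1, CCNB2 and PLK1 a CHR match began 30, 29 and 29 bases before the start, with a CCAAT box beginning 55, 54 and 73 bases before it. CDC20 had a CHR match 65 bases and a CCAAT box 55 bases before the start. The CDC25A window held no CHR match, with CCAAT boxes on the opposite strand at 110 and 58 bases and the E2F-type match at 44 bases before the start. ANAPC1 had its 1 CHR match after the start and no CCAAT box. NEK2, with the third largest log2 change of the 49 (0.84), BUB1, UBE2S and CCNA2 also rose. They had no CHR match of either spelling in their windows, though each had a CCAAT box. Other spellings of CHR were not searched. Counting a gene as positive where any of its windows matched, both CHR and CCAAT in 1 window were found in 19 of 40 mitotic genes (47.5%), against 8.79% of 10303 tested genes with a window and 11.2% of all 27305 genes in the table. CHR, with or without CCAAT, was found in 30 of 40 (75%, against 20.6% of tested and 27.9% of all genes), CCAAT in 28 (70%, against 43.3% and 39.7%) and TTTNNCGC in 8 (20%, against 12.9% and 8.23%). With only the 150 bases before the start, both CHR and CCAAT were found in 30% of the 40 and in 3.38% of tested genes. Of the 19 mitotic genes with both elements, 18 rose, with a median log2 fold change of 0.46; the exception, NCAPD3, did not pass. Of the 21 without both, 15 rose, with a median of 0.25. With TTTNNCGC 4 of 8 genes rose (median 0.057), and without it 29 of 32 (median 0.43). In the 150 bases before the start, TTTNNCGC was found in 5 of the 40 genes (12.5%, against 7.28% of tested genes). These were 1 of 10 genes that rose at least 1.5-fold, 3 of 23 others that rose and 1 of 7 that did not. The split by TTTNNCGC thus depended on the window. Neither split was tested. Such matches are letters in a window and no measure of binding.

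Around CDK1, 6 of 9 genes rose and 1 fell (median log2 fold change 0.46), against 24.5% and 25.6% of all genes. Cyclin B transcripts and 2 of the 3 CDC25 phosphatase genes rose most, and the kinases that oppose them did not pass. CCNB2, which encodes cyclin B2 (ENSG00000157456, on the plus strand of chromosome 15 from 59105078 to 59125045, GENCODE 29 on GRCh38), was at 44.6, 47.1 and 43.2 TPM in WT and at 82.6, 84.8 and 83.8 TPM in CSE. It rose 1.86-fold (log2 change 0.88 ± 0.0441 SE, limma adjusted p = 6.57e-13), the largest log2 change of the 49. CCNB1, for cyclin B1, the main mitotic partner of CDK1 (ENSG00000134057, on the plus strand of chromosome 5 from 69167010 to 69178245), was at 137, 132 and 133 TPM in WT and at 234, 233 and 241 TPM in CSE. Cyclin B1 mRNA rose 1.76-fold (log2 change 0.81 ± 0.0377 SE, limma adjusted p = 2.21e-13). All 3 CSE values of both cyclins lay far above the WT values, with a spread within groups of a few TPM. CCNA2, whose product acts from S phase to early mitosis, rose 1.38-fold, with 52.0 ± 1.86 TPM in WT and 72.0 ± 2.97 TPM in CSE (SD, n = 3 each). CDK1 itself was high in both groups and rose 1.18-fold, with 135, 132 and 129.9 TPM in WT and 155, 152 and 163 TPM in CSE (limma adjusted p = 3.72e-05).

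The 3 CDC25 genes did not move alike. CDC25C, an activator of CDK1 at mitotic entry, was at 14.4, 14.04 and 13.2 TPM in WT and at 23.4, 24.8 and 24.1 TPM in CSE. This gene rose 1.74-fold (log2 change 0.76 ± 0.0548 SE, limma adjusted p = 3.15e-10). CDC25B, which starts CDK1 activation at the centrosome, rose 1.58-fold, with 110.4 ± 3.24 TPM in WT and 175 ± 4.29 TPM in CSE (SD, n = 3 each), log2 change 0.66 ± 0.0396 SE, limma adjusted p = 1.78e-11. CDC25A, which also acts on CDK2 at the start of S phase (ENSG00000164045, on the minus strand of chromosome 3 from 48157146 to 48188402), was at 11.03, 10.8 and 11.4 TPM in WT and at 8.39, 9.72 and 8.16 TPM in CSE. Its CSE values were all under its WT values, and it fell 1.26-fold (log2 change -0.31 ± 0.0678 SE, limma adjusted p = 0.000715). The inhibitory kinase WEE1 was at 26.65, 29.76 and 26.78 TPM in WT and at 26.59, 26.51 and 26.57 TPM in CSE, and its mean was 0.958 times that of WT (limma adjusted p = 0.366, 95% interval of the ratio 0.891 to 1.04). Its CSE values lay just under the lowest WT value without passing the test. PKMYT1, the membrane-bound counterpart, was at 26.9, 27.5 and 26.1 TPM in WT and 28.1, 28.2 and 28.0 TPM in CSE (limma adjusted p = 0.268, interval 0.976 to 1.12). Its CSE values all lay above its WT values, again without passing. For both kinases the interval of the ratio leaves out the size of the CDC25B and CDC25C rises.

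The mitotic kinase genes PLK1, AURKA and NEK2 and the kinase cofactor gene BORA, 4 genes in all, rose by more than 1.5-fold. Of all genes, 2.01% were called with a rise of at least 1.5-fold. The median log2 fold change of the 4 genes (0.83) was the largest of the 7 roles. PLK1, which drives mitotic entry and centrosome maturation (ENSG00000166851, on the plus strand of chromosome 16 from 23677656 to 23690367), was at 81.1, 78.4 and 78.0 TPM in WT and at 140.9, 141.4 and 141.1 TPM in CSE. The CSE values differed by under 1 TPM, and the rise was 1.78-fold (log2 change 0.83 ± 0.0390 SE, limma adjusted p = 2.86e-13). BORA, the cofactor through which Aurora A activates PLK1, had the largest ratio of means, 1.91-fold, from a low level, with 10.6, 10.2 and 9.12 TPM in WT and 19.7, 18.7 and 18.8 TPM in CSE (log2 change 0.87 ± 0.0616 SE, limma adjusted p = 2.22e-10). NEK2, a kinase that separates the centrosomes, was at 39.2, 38.2 and 33.9 TPM in WT and at 65.8, 67.9 and 67.8 TPM in CSE. The rise was 1.81-fold (log2 change 0.84 ± 0.0506 SE, limma adjusted p = 1.73e-11). AURKA rose 1.58-fold, with 35.4 ± 0.586 TPM in WT and 56.1 ± 0.873 TPM in CSE (SD, n = 3 each). Exons of BORA overlap the antisense gene DIS3, those of PLK1 overlap ERN2 and those of CDC25C overlap FAM53C, and without known strandedness such reads cannot be told apart.

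Among the 6 spindle checkpoint genes 5 rose, against 24.5% of all genes, and MAD1L1 did not pass, with a median log2 fold change of 0.29. Of the 6, 0 reached 1.5-fold, against 2.01% of all genes. BUB1, a kinetochore kinase that recruits the checkpoint, was at 59.1, 59.8 and 58.6 TPM in WT and at 87.7, 90.4 and 84.3 TPM in CSE, a 1.48-fold rise (log2 change 0.55 ± 0.0421 SE, limma adjusted p = 6.61e-10). MAD2L1, whose protein MAD2 binds and inhibits CDC20, was at 31.7, 32.2 and 29.7 TPM in WT and at 41.4, 40.2 and 43.5 TPM in CSE. Its rise was 1.34-fold (log2 change 0.41 ± 0.0494 SE, limma adjusted p = 6.55e-07). TTK, the kinase MPS1 that starts checkpoint signalling, rose 1.24-fold, with 38.2, 38.3 and 36.6 TPM in WT and 45.7, 48.1 and 46.1 TPM in CSE (limma adjusted p = 1.23e-05). BUB1B, for the MAD2 partner BUBR1, rose 1.22-fold, and BUB3, the adaptor of both BUB kinases and an mRNA present through the whole cycle, rose 1.104-fold; BUB1B shares exons with the readthrough gene BUB1B-PAK6, so its reads may be split. The order of change within the checkpoint thus ran from BUB1 to BUB3. For these 5 of the 6 genes the CSE values lay above all WT values, against 27.5% of all genes. They are the same 5 genes that were called higher. MAD1L1, the scaffold of MAD2, was at 10.3, 10.7 and 11.3 TPM in WT and at 10.6, 9.90 and 10.8 TPM in CSE, groups that overlapped (limma adjusted p = 0.622, interval of the ratio 0.889 to 1.065). Of 7 partner genes of the checkpoint (BUB3 counted again), 2 rose and 2 fell (median 0.068), shares near the 24.5% higher and 25.6% lower of all genes. BUB3 and MAD2L2 (0.18), which also acts in DNA repair, were higher, and ZWILCH (-0.14) and KNTC1 (-0.14), of the kinetochore RZZ complex, were lower. The KNTC1 call, at limma adjusted p = 0.0482, ended when any 1 of the 3 WT libraries or CSE replicate 3 was left out (limma adjusted p 0.096 to 0.201), without the filter (0.131) and without the variance trend (0.105). Of the 7 genes, 0 fell without WT replicate 1 or WT replicate 2, and 1 fell without any 1 of the other libraries.

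In the APC/C group, which the list extends to securin and separase, 10 of 12 genes rose, 0 fell and 2 subunit genes did not pass (median log2 fold change 0.30). Of all genes, 24.5% were called higher and 25.6% lower. The 5 activator, inhibitor and E2 genes all rose (median log2 fold change 0.39), and so did 3 of the 5 subunit genes (median 0.11); the difference between these sets was not tested. CDC20, the mitotic activator and the most abundant of the 49 transcripts (ENSG00000117399, on the plus strand of chromosome 1 from 43358955 to 43363203), was at 247, 239 and 233 TPM in WT and at 379, 373 and 376 TPM in CSE. CDC20 rose 1.57-fold (log2 change 0.65 ± 0.0368 SE, limma adjusted p = 6.25e-12). FZR1, for CDH1, the activator used from late mitosis through G1, rose 1.28-fold, with 27.5 ± 0.432 TPM in WT and 35.3 ± 0.570 TPM in CSE (SD, n = 3 each). FBXO5, for EMI1, which blocks the APC/C until mitosis, rose 1.28-fold with 35.8, 33.0 and 32.8 TPM in WT and 44.8, 42.0 and 43.0 TPM in CSE (limma adjusted p = 5.29e-06). The E2 enzymes that start and extend ubiquitin chains were also higher. UBE2S was at 229, 218 and 212 TPM in WT and at 316, 312 and 344 TPM in CSE (1.47-fold, limma adjusted p = 6.79e-10). UBE2C was at 207, 192 and 193 TPM in WT and at 259, 251 and 268 TPM in CSE (1.32-fold). UBE2C has 4 annotated pseudogenes by name and UBE2S 2, so reads of either may be split.

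Securin, the product of PTTG1, holds separase inactive until the APC/C destroys it. PTTG1 was at 90.9, 95.5 and 88.7 TPM in WT and at 147, 145 and 160.5 TPM in CSE. It rose 1.64-fold (log2 change 0.71 ± 0.0445 SE, limma adjusted p = 3.25e-11), with CSE replicate 3 highest. ESPL1, separase itself, rose 1.201-fold, with 26.4, 25.1 and 25.2 TPM in WT and 32.4, 31.6 and 28.0 TPM in CSE (limma adjusted p = 0.000661), and CSE replicate 3 was its lowest CSE value. Of the listed APC/C subunits, CDC27 rose 1.17-fold (limma adjusted p = 0.000162), CDC16 1.11-fold (0.0045) and ANAPC5 1.08-fold (0.0302). CDC27 has 3 named pseudogenes. The ANAPC5 call was lost when WT replicate 3 (limma adjusted p = 0.126), CSE replicate 1 (0.154) or the second CSE library (0.0823) was dropped, with no variance trend (0.0846), by quantile normalization (0.0679) and after removal of the mitochondrially encoded genes (0.214). The scaffold ANAPC1 was at 19.5, 19.9 and 20.2 TPM in WT and at 19.6, 20.02 and 16.9 TPM in CSE (limma adjusted p = 0.303, interval of the ratio 0.870 to 1.03). The subunit gene CDC23 was at 30.6, 31.4 and 29.6 TPM in WT and 31.2, 30.2 and 26.4 TPM in CSE (limma adjusted p = 0.385, interval 0.884 to 1.04). CDC23 overlaps exons of KIF20A on the other strand, a gene that rose 2.08-fold. Among 9 further subunit genes 3 rose and 2 fell (median 0.014), near the 24.5% and 25.6% of all genes, so over all 14 subunits 6 rose, 2 fell and 6 did not pass, with a median of 0.057. ANAPC10 (0.27) and ANAPC11 (0.23) led the rises and ANAPC13 (-0.17) the falls, of which 1 was left without WT replicate 2, WT replicate 3, CSE replicate 1 or CSE replicate 2. Without CSE replicate 3, 3 of the 9 fell.

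Condensin exists as 2 complexes that share SMC2 and SMC4. With TOP2A and MKI67, 8 of 10 genes of chromosome structure rose and 2 did not pass (median log2 fold change 0.36). The shares called over all genes were 24.5% higher and 25.6% lower. All 3 condensin I genes rose (median log2 fold change 0.56), against 1 of 3 for condensin II (median 0.086), a difference that was not tested. NCAPG, of condensin I, was at 41.0, 42.8 and 40.3 TPM in WT and at 64.0, 65.0 and 64.3 TPM in CSE (1.56-fold, log2 change 0.63 ± 0.0436 SE, limma adjusted p = 1.76e-10). NCAPD2, the HEAT-repeat subunit of the same complex, was at 127, 124 and 125 TPM in WT and at 188, 188 and 178 TPM in CSE (1.48-fold, limma adjusted p = 1.76e-10). NCAPH, its kleisin, rose 1.19-fold. Condensin II, which is in the nucleus throughout interphase, had NCAPG2 higher by 1.19-fold with 39.9, 41.0 and 37.8 TPM in WT and 47.2, 49.5 and 45.1 TPM in CSE (limma adjusted p = 0.000209). Its NCAPD3 was at 22.5, 21.9 and 22.4 TPM in WT and at 22.03, 21.99 and 19.4 TPM in CSE (limma adjusted p = 0.288, interval of the ratio 0.877 to 1.03). Its NCAPH2 was at 49.5, 45.7 and 46.2 TPM in WT and 49.1, 48.8 and 52.4 TPM in CSE (limma adjusted p = 0.134, interval 0.992 to 1.14). In both, the groups overlapped. Of the shared ATPase subunits SMC4 rose 1.41-fold, with 30.7 ± 0.772 TPM in WT and 43.4 ± 2.22 TPM in CSE (SD, n = 3 each), and SMC2 1.13-fold (limma adjusted p = 0.0162). The SMC2 call was lost on leaving out WT replicate 2 (limma adjusted p = 0.0506), CSE replicate 1 (0.0515) or the second CSE library (0.0881), and with mitochondrially encoded genes left out (0.091).

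MKI67, whose product Ki-67 coats mitotic chromosomes and is the common proliferation marker, was at 105, 106 and 107 TPM in WT and at 167, 171 and 137 TPM in CSE, a 1.497-fold rise (log2 change 0.57 ± 0.0571 SE, limma adjusted p = 4.18e-08). CSE replicate 3 was well under the other CSE libraries but above all WT values, and without it the log2 fold change was 0.67. TOP2A, the topoisomerase that untangles sister chromatids, rose 1.38-fold with 100.3, 103 and 98.0 TPM in WT and 142, 144 and 131 TPM in CSE (limma adjusted p = 1.2e-08). Cohesin, the ring that condensin's relatives SMC1A and SMC3 form, had 4 of 11 genes higher and 0 lower (median 0.080). The shares of all genes were 24.5% and 25.6%. With CSE replicate 3 left out, 7 of the 11 were higher, against 27.6% of all genes. RAD21, the subunit that separase cuts, led (0.43), followed by SGO1, the protector of centromeric cohesin (0.32), while SMC1A (0.087) and SMC3 (0.075) did not pass.

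**Figure D3:**
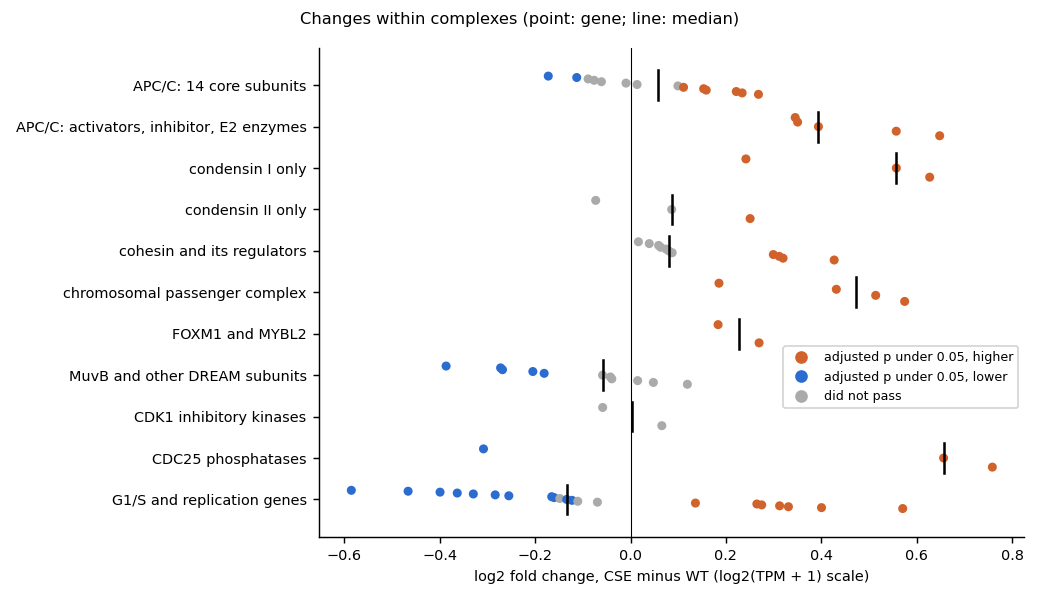
Log2 fold change of each gene (x axis, CSE minus WT on log2(TPM + 1)) within named complexes and lists (y axis); each point is 1 gene, coloured by its limma call, and the black line is the median. Points of the APC/C regulators and condensin I lie to the right of 0, those of the 14 APC/C subunits spread to both sides, and MuvB and DREAM subunits hold 5 lower and 0 higher genes.

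The 4 cytokinesis genes rose by similar amounts, between 1.29-fold and 1.32-fold. RACGAP1, a centralspindlin subunit, was at 73.6, 73.5 and 65.4 TPM in WT and at 95.9, 94.0 and 91.1 TPM in CSE (log2 change 0.40 ± 0.0471 SE, limma adjusted p = 4.28e-07). ANLN, the scaffold anillin of the contractile ring, was at 66.9, 67.3 and 63.1 TPM in WT and at 87.7, 90.1 and 81.0 TPM in CSE (log2 change 0.39 ± 0.0461 SE, limma adjusted p = 5.35e-07). ECT2, the exchange factor that activates RHOA at the equator, was at 50.5, 52.5 and 48.4 TPM in WT and 65.2, 67.1 and 62.3 TPM in CSE (limma adjusted p = 1.4e-06). CIT, the citron kinase of the midbody, was at 18.8, 17.9 and 18.5 TPM in WT and 25.3, 25.3 and 22.1 TPM in CSE (limma adjusted p = 1.32e-05). In each of the 4 the CSE values lay above all WT values, against 27.5% of all genes. CSE replicate 3 was the lowest CSE value in each, as it was for 57.9% of all genes tested. Of 10 further genes of cytokinesis and the midbody, 9 rose and 1 fell (median 0.40), against 24.5% and 25.6% of all genes. The kinesin KIF20A rose most (1.04), AURKB next (0.57), and RHOA, a GTPase used throughout the cell, fell (-0.17). All 4 genes of the chromosomal passenger complex rose (median 0.47), against 24.5% of all genes. The kinase gene AURKB led them, at 99.7, 94.2 and 94.1 TPM in WT and 142, 141 and 148 TPM in CSE. BIRC5, which encodes survivin, followed (0.51).

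Of the 4 transcription factor genes of the program, 2 rose, against 24.5% of all genes, and 2 did not pass. Both rises were under 1.5-fold, and the median log2 fold change of the 4 was 0.12. FOXM1, a forkhead activator of G2/M genes, was at 50, 51.0 and 49.98 TPM in WT and at 63.0, 61.0 and 58.7 TPM in CSE. FOXM1 rose 1.21-fold (log2 change 0.27 ± 0.0438 SE, limma adjusted p = 2.87e-05). MYBL2, for B-MYB, was at 61.2, 58.8 and 59.5 TPM in WT and at 64.6, 72.4 and 67.4 TPM in CSE. MYBL2 rose 1.14-fold (log2 change 0.18 ± 0.0461 SE, limma adjusted p = 0.00227). The MuvB subunits LIN54, which contacts the CHR element, and LIN9 did not pass. LIN54 was at 11.9, 11.2 and 11.6 TPM in WT and at 12.1, 12.4 and 10.6 TPM in CSE (limma adjusted p = 0.864, interval of the ratio 0.921 to 1.11). LIN9 was at 4.52, 4.81 and 4.49 TPM in WT and 4.98, 4.87 and 4.54 TPM in CSE (limma adjusted p = 0.617, interval 0.928 to 1.151), with overlapping groups. Among 9 other subunits of MuvB and of the repressive DREAM complex, 0 rose and 5 fell (median -0.18). Of all genes tested, 24.5% were called higher and 25.6% lower. LIN52 was at 14.2, 12.8 and 12.3 TPM in WT and 10.7, 9.21 and 9.53 TPM in CSE (log2 change -0.39 ± 0.0674 SE, limma adjusted p = 6.52e-05). LIN37 (-0.27), the pocket protein gene RBL1 (-0.27), the repressor E2F4 (-0.20) and RBBP4 (-0.18) were also lower. Without CSE replicate 3, or with median-of-ratios scaling or quantile normalization, 1 of the 9 rose.

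Of 21 G1/S and replication genes, 7 rose and 11 fell (median -0.13), against 24.5% and 25.6% of all genes. E2F1 was lower (-0.59) and RRM2 higher (0.57). CCNE1, the G1/S cyclin gene, was at 43.5, 40.8 and 39.7 TPM in WT and 29.8, 29.5 and 29.6 TPM in CSE, in the direction opposite to CCNB1. In the Greatwall and PP2A-B55 pathway, which keeps CDK1 substrates phosphorylated during mitosis, 2 of 6 genes rose and 2 fell (median -0.056), shares not far from those of all genes (24.5% and 25.6%). PPP2R2A, a B55 subunit, fell (-0.26), as did MASTL, Greatwall kinase (-0.17), and the scaffold PPP2R1A rose (0.22); with mitochondrially encoded genes left out, 1 rose and 4 fell. Without WT replicate 3, 1 of the 6 rose, and without WT replicate 2, 1 fell. Of 10 other cell cycle kinases and partners, 9 passed the filter, 4 rose and 0 fell (median 0.12), against 24.5% and 25.6% of all genes. CCNF, for cyclin F, led (0.68), then CKS2, a small CDK1-binding protein (0.28), CHEK1 (0.14) and CCNH (0.13). The last 2 are small changes, and 2 genes of that list rose without WT replicate 3, without CSE replicate 2, without the filter or with mitochondrially encoded genes left out. CKAP2L, the spindle protein named in the series title, rose 1.38-fold, from 19.5 to 26.8 TPM.

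Ratios of 2 transcripts within a library do not depend on its scaling, and 6 were compared between the groups. CDC25B over WEE1, an activator over an inhibitor of CDK1, was 4.26, 3.595 and 4.13 in WT and 6.44, 6.77 and 6.51 in CSE, a log2 difference of 0.72. CDC25C over PKMYT1 was 0.535, 0.510 and 0.505 in WT and 0.831, 0.881 and 0.861 in CSE (log2 difference 0.73). These ratios hold the 2 CDC25 genes that rose, so they restate those calls on a scale free of library scaling. CDC25A, which fell, went the other way: over WEE1 it was 0.414, 0.362 and 0.424 in WT and 0.316, 0.367 and 0.307 in CSE, groups that overlapped. Over PKMYT1 it was 0.411, 0.391 and 0.436 in WT and 0.298, 0.345 and 0.291 in CSE. NCAPG of condensin I over NCAPH2 of condensin II was 0.829, 0.937 and 0.873 in WT and 1.30, 1.33 and 1.23 in CSE. This separation depends on the pair: for the matched kleisins, NCAPH over NCAPH2 was 0.677, 0.759 and 0.751 in WT and 0.818, 0.877 and 0.751 in CSE, groups that overlapped. For the other matched pairs the groups did not overlap, with NCAPG over NCAPG2 at 1.03, 1.04 and 1.07 in WT and 1.35, 1.31 and 1.43 in CSE and NCAPD2 over NCAPD3 at 5.65, 5.66 and 5.596 in WT and 8.55, 8.54 and 9.20 in CSE. CDC20 over FZR1, the APC/C activators of mitosis and of G1, was 8.82, 8.82 and 8.53 in WT and 10.6, 10.5 and 10.8 in CSE. CCNB1 over CCNA2 was 2.53, 2.54 and 2.65 in WT and 3.20, 3.14 and 3.51 in CSE. PTTG1 over ESPL1, securin over separase, was 3.45, 3.81 and 3.52 in WT and 4.52, 4.601 and 5.73 in CSE. The longest coding transcripts of PTTG1 and ESPL1 have 1070 and 6623 bases. In CSE replicate 3 these genes differed from the other CSE libraries by 0.14 and -0.19 log2. A ratio is free of library scaling but not of such a difference, whose part in the value of 5.73 was not tested. Of the 6 ratios compared, chosen with results known, none overlapped between groups. Among all single genes tested, 27.5% had the CSE values all above and 29.9% all below the WT values. The share among other gene pairs was not counted. The 5 matched-pair and CDC25A ratios were added later and not tested. The exact two-sided permutation test gave p = 0.1 for each of the 6, also after Benjamini-Hochberg adjustment over the 6, which is the smallest that 3 against 3 libraries allow.

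**Figure D4:**
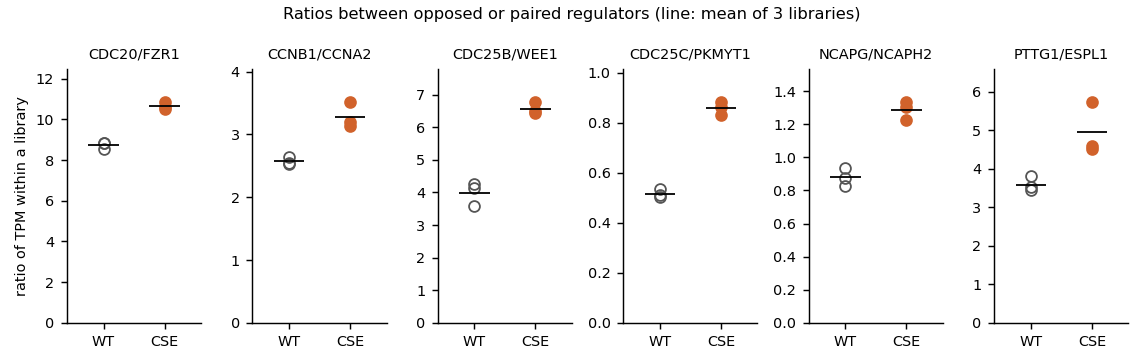
Ratio of the TPM of 2 genes within each library (y axis, from 0) for 3 WT and 3 CSE libraries, with the mean as a line. In all 6 panels the CSE points lie above the WT points, and CSE replicate 3 stands above the other CSE libraries in CCNB1/CCNA2 and PTTG1/ESPL1.

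CSE replicate 3 stood apart from the other CSE libraries on the second principal component of all genes tested (9.26% of the variance), and its difference from them in the mitotic genes was related to transcript length. It was the lowest CSE library for 27 of the 49 genes and the highest for 9, against 57.9% and 23.7% of all genes tested. Its log2 difference from the other 2 CSE libraries was -0.30 for MKI67, whose longest coding transcript in GENCODE 29 has 12678 bases, -0.22 for ANAPC1 (8262 bases), 0.043 for BUB3 (7828 bases) and 0.14 for PTTG1 (1070 bases). Spearman's rho of this difference with length was -0.68 across the 49 genes and -0.54 across 12748 tested genes with a length; genes share their libraries and are not independent, so these are descriptions. The change between the groups was related to length less closely (rho -0.27 and -0.16). Without CSE replicate 3, 39 of the 49 rose and CDC25A fell, with a median log2 fold change of 0.36.

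**Figure D5:**
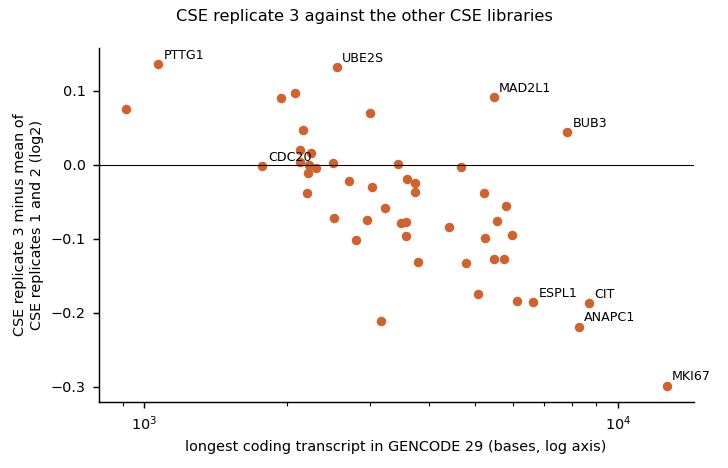
Difference of CSE replicate 3 from the mean of CSE replicates 1 and 2 (y axis, log2(TPM + 1)) against the longest coding transcript of each of the 49 genes (x axis, log scale); each point is 1 gene. Longer transcripts such as MKI67, CIT, ANAPC1 and ESPL1 lie under 0 and the short PTTG1 above it, while BUB3 and MAD2L1, also long, lie above 0.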

How the data were processed

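The authors deposited 1 table of TPM for 20263 genes in 6 libraries, with 0 sample columns left unmapped. Per the labels' protocols, Trizol RNA was treated with DNase and made into mRNA libraries. HISAT2 2.0, Trimmomatic 0.36, bedtools 2.26.0, FastQC 0.11.2 and the build GRCh38 were used per the submitters' processing notes. The sources used here give no counting program, annotation or strandedness, so reads of antisense neighbours (20 of the 49 genes have an exon overlap) and of pseudogene copies (15 have one by name) may be mixed.

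Symbols matched 20148 gene IDs; positions are from GENCODE 29. Genes with at least 1 TPM in at least 3 libraries (12793) were transformed to log2(TPM + 1), which understates changes of low genes, and limma 3.58.1 (R 4.3.3; variance trend, no covariate) tested the difference CSE minus WT, with Benjamini-Hochberg adjustment over all of them at 0.05. Folds are ratios of mean TPM; 95% intervals are limma's, as ratios of TPM + 1. Simulated data with known changes were used to check the fit. Members, gene lists and tests were chosen with earlier results of these data known. The rule for values per library was the 3 called genes of each role with the largest change, any called against the majority, and those that did not pass; other lists give their 2 largest changes and 1 against the majority. Values per library beyond this rule (CDK1, FBXO5, UBE2C, ESPL1, NCAPG2, TOP2A, ECT2) and further genes (ZWILCH, SMC1A, SMC3, CCNE1, MASTL, CHEK1, CCNH, LIN37, E2F4, RBBP4) were added after their values were seen. The 15 alternatives changed the pseudocount (0.1), the filter (none, or a mean of 5 TPM), the scaling (3 ways), the variance prior (no trend, or robust), added a replicate block or left out each library; motifs were also counted in the 150 bases before the start.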

Additional observations from a re-analysis of the deposited data

How the results depend on the processing

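Counts over the 49 genes and over the 7 roles stayed within 1.5 times of the reported value in all 15 alternatives: 37 to 39 of the 49 rose and 1 fell. With the replicate number as a block (replicate block), 39 rose, 1 fell and 6537 genes were called in all, against 6407 without it. No signal shared by same-numbered libraries was seen, which does not settle whether the numbers pair the samples. Deviations of same-numbered libraries from their group means correlated at -0.071, 0.015 and -0.088, and WT replicate 1 went closest with CSE replicate 3 (0.12). Signs of single genes turned only among those that passed under no setting: LIN54 (0.015) was -0.039 with mitochondrially encoded genes left out and -0.024 to 0.076 when single libraries were left out, LIN9 (0.048) was -2.5e-05 in the same rescaling, and CDC23 (-0.061) was -0.11 to 0.0094 with single libraries left out. Of the 40 called genes, ANAPC5 and SMC2 alone lost their call under any alternative. The count of lower genes among 9 other APC/C subunits was 1 instead of 2 in 6 alternatives, and that of 7 checkpoint partners 0 or 1 instead of 2 in 8. The APC/C count was 3 with quantile normalization, with mitochondrially encoded genes left out and without CSE replicate 3. LIN9 was under the 5 TPM mean and has no value there. The CHR share of the 40 promoters was 42.5% in the 150-base window, and that of all 27305 genes 15.3%. With other pairs, chosen after seeing the data, the log2 difference of the condensin ratio (0.55) was 0.16 for NCAPH/NCAPH2, 0.38 for NCAPG/NCAPG2 and 0.64 for NCAPD2/NCAPD3, and CDC25A in place of CDC25B and CDC25C turned the sign (-0.28 over WEE1, -0.41 over PKMYT1). Depth is unknown, so no counting error could be set on any value.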
